A study of Mus musculus with 16 samples.

Results

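Complement, coagulation and fibrinolysis are linked protease cascades of the blood. The genes described here were chosen by symbol from a list of 53 complement, coagulation and fibrinolysis genes that leaves out the serpins, and 51 of them were found among the 18132 genes of the table. C7 and A2M were not found by symbol and are not analysed here. In unilateral ureteral obstruction (UUO) a metal clip closes the left ureter, and the kidney behind it is injured. Whole-kidney RNA was hybridized to Illumina mouse BeadChips, 1 array per kidney and 16 in all, to ask how the early response to UUO differs without IL-33. Intensity, the brightness of the probes of a gene, was read on a linear scale, and group comparisons were made on log2 intensity with limma over all 18132 genes.

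The 4 groups were WT kidneys 24 h after UUO (n = 7), IL-33-deficient kidneys 24 h after UUO (n = 5), WT control kidneys (n = 2) and IL-33-deficient control kidneys (n = 2). The IL-33-deficient (IL-33 KO) mice lacked Il33 in all tissues and had been backcrossed for 10 generations to C57BL/6J BomTac. The mice were 8 weeks old unless the study states otherwise. Controls were untreated, so that obstruction and the surgery that goes with it cannot be told apart. The UUO kidneys came from 2 sets of mice: WT replicates 3818, 3819 and 3820 and IL-33-deficient replicates 3821 and 3822 in set 1, and WT replicates 3892, 3893, 3894 and 3895 and IL-33-deficient replicates 3897, 3898 and 3899 in set 2. The set of the controls 3811 to 3814 is not stated. The number of arrays limits the precision.

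Complement is activated through C1Q bound to immune complexes, through mannose-binding lectins with the MASP proteases, or through the alternative route of factors B and D, and each route cleaves C3. Coagulation ends with thrombin, which turns fibrinogen, a protein of alpha, beta and gamma chains, into fibrin, and plasmin dissolves it. The liver makes most of these proteins, while kidney tubule cells, endothelium and macrophages make some of them, and injured tubules are known to produce fibrinogen and C3.

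The labels of the genotype were checked on IL33 itself. IL33 had intensities of 197 and 259 in the WT controls, 118 and 115 in the IL-33-deficient controls, a lowest of 335, a median of 696 and a highest of 762 in WT kidneys after UUO, and 118, 112, 129, 118 and 118 in IL-33-deficient kidneys after UUO (replicates 3821, 3822, 3897, 3898 and 3899). The IL-33-deficient kidneys were all lower than any WT kidney, and lower than the array medians of 132 to 133, and WT replicate 3818 was the lowest of the WT kidneys after UUO. After UUO the genotypes differed by a log2 of -2.36 (adjusted p = 9.55e-05 from limma, standard error 0.17), and in WT kidneys IL33 rose with UUO by a log2 of 1.43 (adjusted p = 8.23e-04 from limma).

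A pair of WT kidneys after UUO stood apart. The summed intensity of the tubular injury genes HAVCR1 and LCN2 was 4973 in WT replicate 3820 and 14379 in WT replicate 3818, against 19502 to 28333 in the other 5 WT kidneys after UUO and 322 to 352 in the 4 controls. Among the 19 complement, coagulation and fibrinolysis genes that passed the test for UUO in IL-33-deficient kidneys, WT replicate 3820 was the WT kidney after UUO closest to the WT controls for 11, and it was so for 52.3% of the 3955 such genes of the whole table. WT replicate 3818 held raised levels of several genes made by the liver, such as HPX at 1378 against 119 to 149 in the other 15 kidneys (HPX was chosen after its values were seen). Counts of the 51 genes, and the values of part of the genes, are given with and without them.

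FGG and FGA, the genes of the gamma and alpha chains of fibrinogen, and C3, the component on which the complement routes meet, had the largest changes after UUO among the 51 genes, and all 3 rose in both genotypes. FGB, the gene of the beta chain, stayed near background in every kidney. In the RefSeq annotation of GRCm38.p6, the 3 fibrinogen genes lie next to each other on chromosome 3 in the order FGG, FGA, FGB, with FGB on the opposite strand. The 250 bases before the start of each of these genes and of C3, as RefSeq gives them for GRCm38.p6, are printed below because the genes that moved together can be compared there with the neighbour that did not pass the test. Capitals mark matches, on either strand, to the letters CTGGGAA (the interleukin-6 response element), TTCNNNGAA (a STAT element), TTGCNNAA (a C/EBP element) or GGGNNTTCC (an NF-kB-like element). The sequences run 5′ to 3′ on the strand of the gene: FGG from chr3:83007474-83007723 on the plus strand, FGA from chr3:83025903-83026152 on the plus strand, FGB from chr3:83049864-83050113 on the minus strand and C3 from chr17:57228137-57228386 on the minus strand.
FGG: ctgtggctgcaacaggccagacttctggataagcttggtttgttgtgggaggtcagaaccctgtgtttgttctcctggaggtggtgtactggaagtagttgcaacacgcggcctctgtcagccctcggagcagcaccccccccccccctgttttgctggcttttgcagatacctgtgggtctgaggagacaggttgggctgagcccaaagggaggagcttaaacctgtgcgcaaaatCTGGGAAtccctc
FGA: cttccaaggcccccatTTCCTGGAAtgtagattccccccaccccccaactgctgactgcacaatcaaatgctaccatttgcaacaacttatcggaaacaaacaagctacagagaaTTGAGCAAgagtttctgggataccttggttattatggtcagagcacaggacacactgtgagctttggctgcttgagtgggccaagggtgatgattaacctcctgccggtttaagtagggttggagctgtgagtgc
FGB: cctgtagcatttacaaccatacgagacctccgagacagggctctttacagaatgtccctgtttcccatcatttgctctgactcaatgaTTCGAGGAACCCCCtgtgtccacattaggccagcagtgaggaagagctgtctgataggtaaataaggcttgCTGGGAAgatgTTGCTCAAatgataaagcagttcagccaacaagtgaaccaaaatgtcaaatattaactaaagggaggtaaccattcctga
C3: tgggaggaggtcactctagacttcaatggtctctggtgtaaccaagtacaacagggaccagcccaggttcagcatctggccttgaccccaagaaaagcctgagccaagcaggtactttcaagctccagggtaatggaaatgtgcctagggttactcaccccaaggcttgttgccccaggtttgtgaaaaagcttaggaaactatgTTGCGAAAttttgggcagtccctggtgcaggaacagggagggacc

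The FGG window held CTGGGAA, starting 13 bases before the gene start. The FGA window held TTCCTGGAA, a match to TTCNNNGAA, 234 bases before the start and TTGAGCAA, a match to TTGCNNAA on the other strand, 135 bases before it. In the FGB window all 4 motifs were found, CTGGGAA at 91 bases, TTGCTCAA at 80, TTCGAGGAA at 162 and, overlapping it, GGAACCCCC, the other strand of GGGNNTTCC, at 157. The C3 window held TTGCGAAA, a match to TTGCNNAA, at 45 bases. Of the 32851 promoter windows of this length in the RefSeq table, 9.1% held CTGGGAA, 7.02% TTCNNNGAA, 9.56% TTGCNNAA and 4.98% GGGNNTTCC. Windows were in the table for 36 of the 51 genes, and 6, 5, 8 and 2 of them held the motifs in that order. A gene with several windows was counted if any of them held the motif, while the shares above are per window. For the 10 of these 36 genes that rose after UUO in either genotype the counts were 1, 2, 3 and 0. These matches are descriptions of letters and do not show that a factor binds there.

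FGG had intensities of 385 and 257 in the WT controls and 273 and 296 in the IL-33-deficient controls. After UUO it had a lowest of 4080, a median of 11072 and a highest of 14761 in WT kidneys, and 11468, 12725, 12550, 12119 and 12824 in IL-33-deficient kidneys (in the order 3821, 3822, 3897, 3898, 3899). All 12 UUO kidneys were far above all 4 controls, the IL-33-deficient kidneys lay close together inside the WT range, and WT replicate 3820 was the low WT kidney. FGG rose by a log2 of 5.03 (standard error 0.33, adjusted p = 8.15e-07 from limma), or 32.6-fold, in WT and of 5.44 (standard error 0.35, adjusted p = 4.17e-07) in IL-33-deficient kidneys.

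FGA had 652 and 989 in the WT controls and 982 and 677 in the IL-33-deficient controls. With UUO the WT kidneys had a lowest of 4664, a median of 15557 and a highest of 17692, and the IL-33-deficient kidneys had 16005, 14311, 13798, 16152 and 16005. Again no UUO kidney overlapped a control, the genotypes overlapped, and WT replicate 3820 was far below the 12725 of the next WT kidney. The rise was a log2 of 4.02 (standard error 0.37, adjusted p = 1.85e-05) in WT and of 4.22 (standard error 0.39, adjusted p = 8.23e-06) in IL-33-deficient kidneys. Without WT replicate 3820 the WT rise was 4.27 for FGA and 5.25 for FGG, and both genes passed the test under every alternative tried.

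FGB did not follow its neighbours. Its intensities lay between 102 and 123 over all 16 kidneys, below the median of every array, and its log2 fold change was 0.07 (adjusted p = 0.577) in WT and -0.02 (adjusted p = 0.917) in IL-33-deficient kidneys. FGB was outside the rule for genes described sample by sample and was chosen after its values were seen. Whether the FGB probe responds to its transcript was not tested. ALB, the gene of albumin and a defining hepatocyte marker, was likewise near background in every kidney, at 104 to 121, also in WT replicate 3818 (111), where other hepatocyte markers were raised. Whether the ALB probe responds to its transcript was not tested either. Of the 10 hepatocyte markers TTR had the highest mean intensity, and ALB, CPS1 and TAT were near background. None of the 10 rose, and TTR fell, with a log2 fold change of -2.02 in WT (-2.37 without WT replicates 3818 and 3820) and -3.83 in IL-33-deficient kidneys. Their summed intensity was 7328 and 6908 in the WT controls, 8578 and 10499 in the IL-33-deficient controls, 1949 to 7601 (median 2794) in WT kidneys after UUO, with the highest in WT replicate 3818, and 1604, 2004, 1991, 2386 and 2142 in IL-33-deficient kidneys after UUO. TTR alone had 303 to 8880 over the 16 kidneys, while APOA1, AHSG and HPX had at most 146, 122 and 149 outside WT replicate 3818. The sum is therefore weighted to TTR and does not stand for the 10 genes alike.

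**Figure D1:**
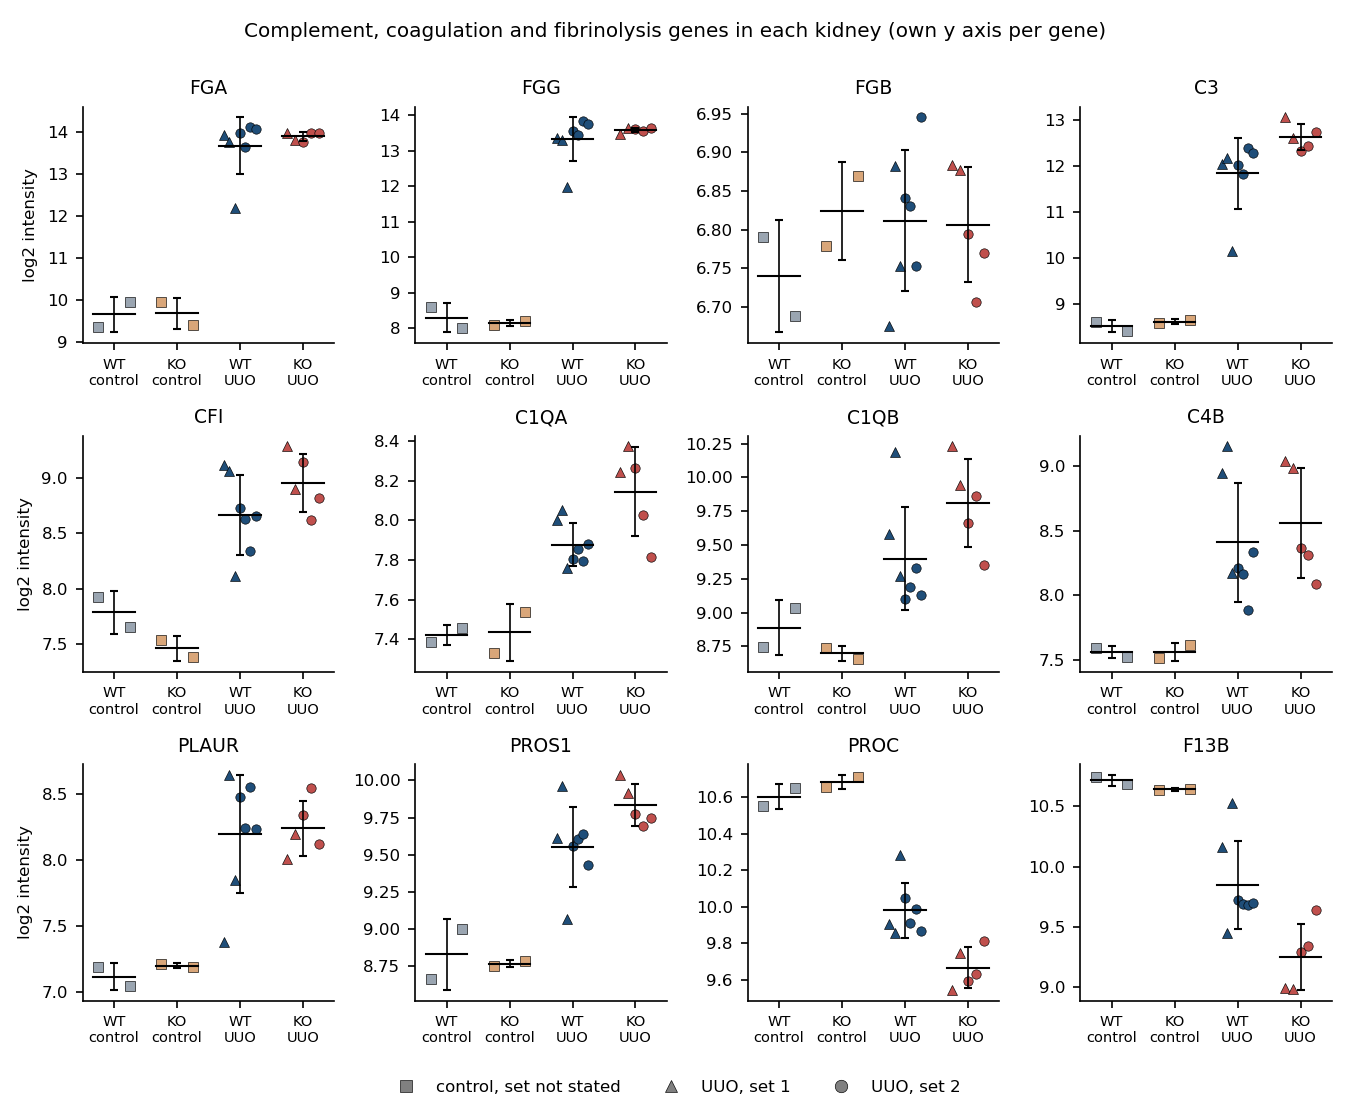
Log2 intensity (y axis, own scale for each gene) of 12 genes in each of the 16 kidneys by group (x axis). Squares are controls, triangles UUO kidneys of set 1 and circles those of set 2, and bars give the mean and SD. FGA, FGG and C3 are far above the controls in all UUO kidneys, with WT replicate 3820 as the low triangle, while FGB stays between 102 and 123 in linear intensity in every group.

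C3 had 391 and 345 in the WT controls and 385 and 404 in the IL-33-deficient controls. After UUO it had a lowest of 1135, a median of 4234 and a highest of 5356 in WT kidneys and 8531, 6298, 5152, 5560 and 6804 in IL-33-deficient kidneys. All UUO kidneys were above all controls, and the IL-33-deficient kidneys lay at the top, with only replicate 3897 inside the WT range. C3 rose by a log2 of 3.32 (standard error 0.41, adjusted p = 1.89e-04) in WT and of 4.01 (standard error 0.43, adjusted p = 2.48e-05) in IL-33-deficient kidneys. WT replicate 3820 had 1135 where the other WT kidneys had 3629 or more, and without it the WT rise was a log2 of 3.60 (adjusted p = 4.32e-09). After UUO the difference between genotypes in C3 was a log2 of 0.79, which did not pass the test (adjusted p = 0.434), and it was 0.51 (adjusted p = 0.258) without WT replicate 3820. Within set 1 and set 2 it was 1.38 and 0.37, and it passed in neither.

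Over the whole group of 51 genes, 8 rose and 5 fell after UUO in WT kidneys at an adjusted p under 0.05 in limma, where 6.97% of all 18132 genes rose and 8.22% fell. In IL-33-deficient kidneys 15 rose and 4 fell, where 10.6% of all genes rose and 11.2% fell. The median log2 fold change of the 51 genes was 0.02 in both genotypes, beside -0.00076 and -0.00057 over all genes. 12 genes passed in both genotypes, in the same direction, 1 (CD59A) in WT kidneys alone and 7 in IL-33-deficient kidneys alone, and the difference between genotypes in the response passed for none of the 51. Of all genes 2754 passed in WT and 3955 in IL-33-deficient kidneys. Their overlap is not given here, so the split of the 51 cannot be set against it. The 2 comparisons have separate controls. Without WT replicates 3818 and 3820, an alternative chosen after seeing the data, 10 of the 51 rose and 5 fell in WT kidneys, with F2RL1 and F13A1 added, where 2009 of all genes rose and 2107 fell, against 1263 and 1491 with all arrays. Without WT control 3811, 3 rose and 2 fell (458 and 593 of all genes), and without WT control 3812, 4 rose and 2 fell (367 and 442 of all genes). In IL-33-deficient kidneys 10 rose without control 3813 (1055 of all genes, against 1916) and 8 without control 3814 (1210 of all genes). With the WT kidneys of set 1 alone 4 rose and 2 fell (409 and 480 of all genes), and with those of set 2 alone 10 rose and 5 fell (1966 and 2068 of all genes).

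**Figure D2:**
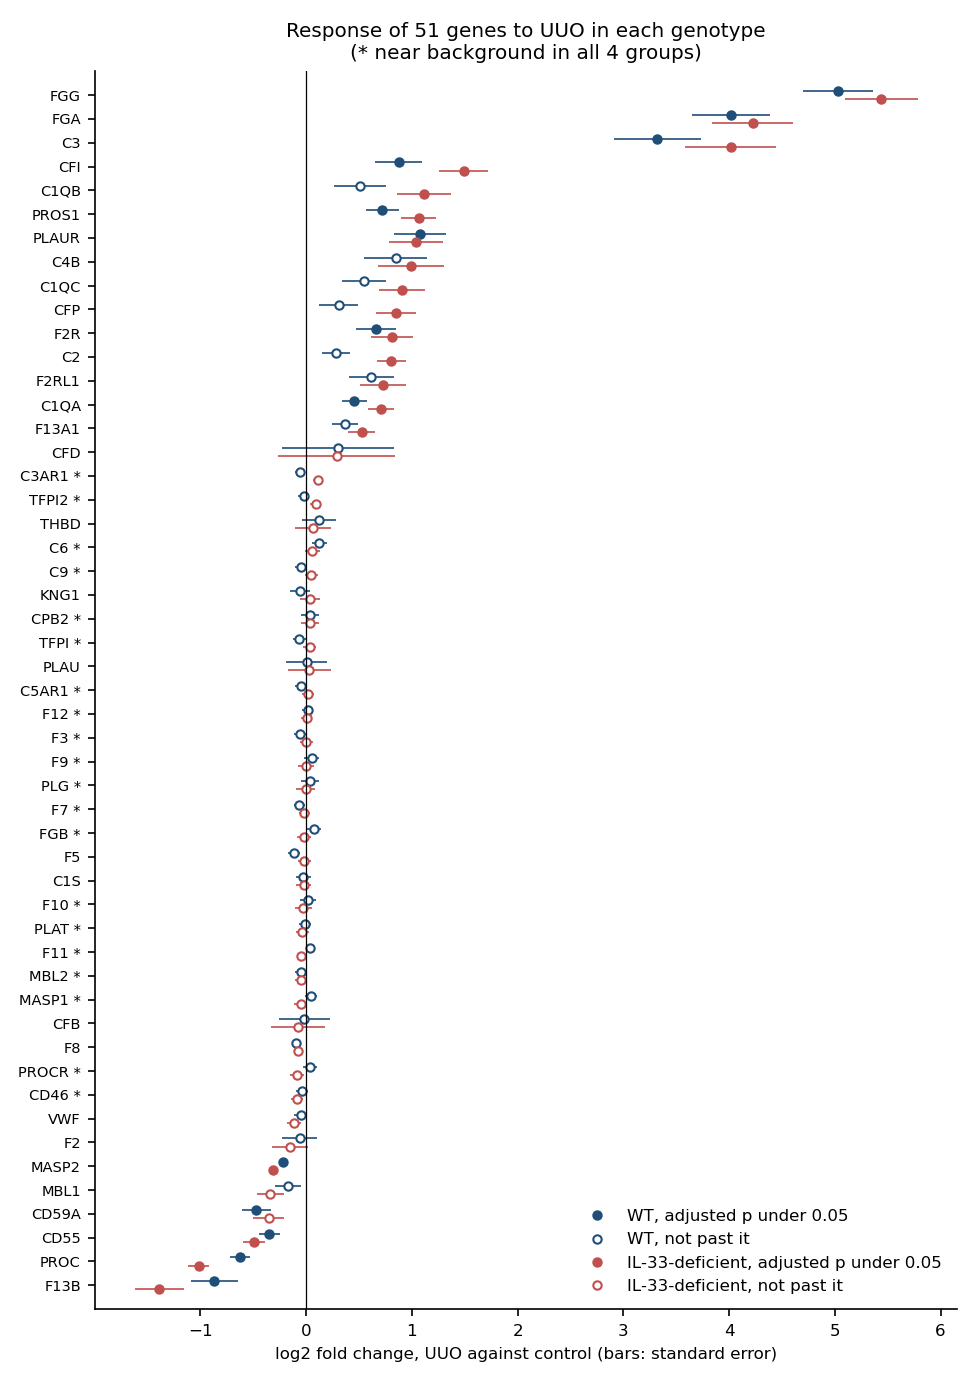
Log2 fold change of UUO against control (x axis) for each of the 51 genes (y axis) in WT and IL-33-deficient kidneys, with standard errors as bars; filled points passed an adjusted p of 0.05 in limma and a star marks genes near background. FGG, FGA and C3 lie far to the right in both genotypes, F13B and PROC lie lowest, and the genes near background lie close to 0.

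C1Q, the recognition molecule of the classical complement route, is built from the products of C1QA, C1QB and C1QC, which lie next to each other on chromosome 4 and which macrophages are known to express. C1QA had 167 and 176 in the WT controls and 161 and 186 in the IL-33-deficient controls. After UUO it had a lowest of 216, a median of 231 and a highest of 265 in WT kidneys and 303, 332, 307, 261 and 225 in IL-33-deficient kidneys. Both UUO groups lay above the controls, and 3 of the 5 IL-33-deficient kidneys were above every WT kidney, while replicates 3898 and 3899 were inside the WT range. C1QA rose by a log2 of 0.46 (adjusted p = 0.0154) in WT and 0.71 (adjusted p = 6.53e-04) in IL-33-deficient kidneys. These log2 changes were 0.76 and 1.12 with the lowest intensity subtracted and 16 added. The WT call was lost without either WT control and with set 1 alone (adjusted p up to 0.151).

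C1QB had 428 and 523 in the WT controls and 427 and 404 in the IL-33-deficient controls. In WT kidneys after UUO its lowest was 549, its median 619 and its highest 1164, and the IL-33-deficient kidneys had 1201, 987, 809, 931 and 654. The highest WT kidney was replicate 3819, well above the other WT kidneys, which did not exceed 766, and the genotypes overlapped. C1QB rose by a log2 of 1.11 (adjusted p = 0.00507) in IL-33-deficient kidneys, and its 0.51 in WT kidneys did not pass (adjusted p = 0.203). C1QC rose by a log2 of 0.91 (adjusted p = 0.0071) in IL-33-deficient kidneys and had 0.55 (adjusted p = 0.102) in WT kidneys. The calls in IL-33-deficient kidneys were lost without control 3814 for C1QB (adjusted p = 0.0548) and without control 3813 for C1QC (adjusted p = 0.0767). Since RNA came from whole kidneys, more cells of a type and more RNA per cell cannot be told apart, nor can fewer cells and less RNA per cell.

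Markers of macrophages and monocytes were read beside C1Q. 2 of 11 such genes in the table (CD68 and CD14) rose in WT, where 6.97% of all genes did, and 4 of 11 (CD68, CD14, LYZ2 and AIF1) in IL-33-deficient kidneys, where 10.6% did. CSF1R fell in both, where 8.22% and 11.2% of all genes fell, and PTPRC, CCR2 and CD163 were near background. CD14, which kidney tubule cells can also express, had the highest mean intensity over all kidneys. LYZ2 had the highest intensity in the 4 controls and in IL-33-deficient replicate 3897. Different genes have different probes, so such orders of intensity do not rank amounts of transcript. The summed intensity of the 11 genes was 2074 and 2050 in the WT controls, 1987 and 1910 in the IL-33-deficient controls, 2234 to 4646 (median 3687) in WT kidneys after UUO, with the highest in WT replicate 3819, and 5196, 4573, 4109, 4031 and 3445 in IL-33-deficient kidneys after UUO. Of 8 neutrophil markers, S100A8 and RETNLG rose in WT and S100A8 and S100A9 in IL-33-deficient kidneys, while MPO, CSF3R, IL8RB, NGP and CAMP were near background. The highest mean intensity among them was that of S100A8, and their sum was 1349 and 1201 in the WT controls, 1148 and 949 in the IL-33-deficient controls, 1275 to 2810 (median 2556) in WT kidneys after UUO, and 2395, 2184, 3274, 3051 and 1822 in the IL-33-deficient ones. The part of these cells in the C1Q result was not tested.

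The other genes of the complement routes that rose did so in IL-33-deficient kidneys, and CFI in both genotypes. C2 and C4B encode the parts of the C3-cleaving enzyme of the classical and lectin routes. C2 rose by a log2 of 0.81 (adjusted p = 6.07e-04) and C4B by 1.00 (adjusted p = 0.0315) in IL-33-deficient kidneys, beside 0.28 and 0.85 in WT kidneys, which did not pass (adjusted p = 0.183 and 0.0707). C2 started lower in the IL-33-deficient controls, at 926 and 1174 against 1429 and 1447 in the WT controls, a difference with an adjusted p of 1 (C2 levels were chosen after their values were seen). C4B lost its call in IL-33-deficient kidneys without either IL-33-deficient control, without replicate 3821 or 3822, and with set 2 alone, with adjusted p up to 0.179. In WT kidneys C4B passed under 5 alternatives, among them array weights (adjusted p = 0.0334) and brighter genes only (adjusted p = 0.0363).

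CFP encodes properdin, which stabilizes the C3-cleaving enzyme of the alternative route. CFP had 307 and 329 in the WT controls, 308 and 274 in the IL-33-deficient controls, a lowest of 284, a median of 382 and a highest of 589 in WT kidneys after UUO, and 631, 537, 533, 469 and 471 in IL-33-deficient kidneys after UUO. The IL-33-deficient UUO kidneys lay above all controls and above all WT kidneys but replicate 3819, and WT replicate 3820 fell among the controls. CFP rose by a log2 of 0.85 (adjusted p = 0.00423) in IL-33-deficient kidneys and had 0.31 (adjusted p = 0.334) in WT kidneys. Its call was lost without IL-33-deficient control 3814 (adjusted p = 0.0620), and in WT kidneys without replicates 3818 and 3820 it had 0.41 (adjusted p = 0.0882).

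CFI is the protease that inactivates C3b and C4b. It had 243 and 201 in the WT controls, 187 and 167 in the IL-33-deficient controls, a lowest of 277, a median of 403 and a highest of 554 in WT kidneys after UUO, and 624, 477, 566, 394 and 451 in IL-33-deficient kidneys after UUO. All UUO kidneys were above all controls and the genotypes overlapped, with WT replicate 3820 the lowest. CFI rose by a log2 of 0.88 (adjusted p = 0.0146) in WT and 1.49 (adjusted p = 3.08e-04) in IL-33-deficient kidneys. In WT kidneys the call was lost without either WT control and with set 1 alone (adjusted p up to 0.194), and it was kept without replicates 3818 and 3820, with 0.90 (adjusted p = 0.00163).

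Among the inhibitors on the cell surface, CD55 hastens the decay of the C3-cleaving enzymes and CD59A blocks the membrane attack complex. CD55 fell, with log2 changes of -0.35 (adjusted p = 0.0319) in WT and -0.49 (adjusted p = 0.00338) in IL-33-deficient kidneys. Its log2 changes were -0.56 and -0.80 with the lowest intensity subtracted and 16 added. CD59A fell, with a log2 change of -0.47 (adjusted p = 0.0319) in WT kidneys, and its -0.35 in IL-33-deficient kidneys did not pass (adjusted p = 0.102). The WT call of CD55 was lost without either WT control, with set 1 alone and with the 2 WT groups alone (adjusted p up to 0.204), and its call in IL-33-deficient kidneys without control 3814 (adjusted p = 0.0537). For CD59A the WT call was lost under the same alternatives and without any of WT replicates 3892, 3894 or 3895 (adjusted p up to 0.263), while in IL-33-deficient kidneys it passed with set 2 alone (adjusted p = 0.0495) and in the model without WT replicates 3818 and 3820 (adjusted p = 0.0364).

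MASP2, the protease that mannose-binding lectin carries to cleave C4 and C2, fell in both genotypes. It had 150 and 150 in the WT controls, 145 and 147 in the IL-33-deficient controls, a lowest of 123, a median of 129 and a highest of 134 in WT kidneys after UUO, and 120, 118, 115, 114 and 120 in IL-33-deficient kidneys after UUO. The groups did not overlap, with the controls highest and the IL-33-deficient UUO kidneys lowest, but nearly all the UUO values lay under the array medians of 132 to 133. The log2 change of MASP2 was -0.22 (standard error 0.04, adjusted p = 0.00154) in WT and -0.31 (standard error 0.04, adjusted p = 7.30e-05) in IL-33-deficient kidneys. With the lowest intensity of the table subtracted and 16 added before log2, the log2 changes were -0.51 and -0.81.

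Of the coagulation factors, F13B fell and F13A1 rose. F13B encodes the carrier subunit of factor XIII, which crosslinks fibrin, and F13A1 the enzyme subunit. F13B had 1717 and 1644 in the WT controls, 1588 and 1603 in the IL-33-deficient controls, a lowest of 698, a median of 830 and a highest of 1476 in WT kidneys after UUO, and 510, 506, 626, 648 and 799 in IL-33-deficient kidneys after UUO. All UUO kidneys were below all controls, WT replicates 3820 and 3818 were the highest of them, and the genotypes overlapped only through WT replicate 3819 and IL-33-deficient replicate 3899. F13B fell, its log2 change being -0.87 (adjusted p = 0.0160) in WT and -1.39 (adjusted p = 5.45e-04) in IL-33-deficient kidneys, and without WT replicates 3818 and 3820 the WT change was -1.07 (adjusted p = 4.83e-05). The WT call of F13B was lost without either WT control, with set 1 alone and with the 2 WT groups alone (adjusted p up to 0.206). F13A1 rose by a log2 of 0.53 (adjusted p = 0.00737) in IL-33-deficient kidneys and had 0.37 (adjusted p = 0.0573) in WT kidneys. F13A1 was under the array medians in all 4 controls, at 107 to 121, so its fold changes are taken against background, and with the lowest intensity subtracted and 16 added they were 1.34 in IL-33-deficient and 0.87 in WT kidneys on the log2 scale. It lost its call in IL-33-deficient kidneys without control 3814 (adjusted p = 0.0910), and in WT kidneys it passed under 8 alternatives, among them those without replicate 3820 (adjusted p = 0.0265) and without replicates 3818 and 3820 (adjusted p = 0.0296).

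Protein C, from PROC, is the circulating protease that shuts off thrombin formation, and protein S, from PROS1, is its cofactor. PROC had 1502 and 1606 in the WT controls, 1614 and 1674 in the IL-33-deficient controls, a lowest of 928, a median of 961 and a highest of 1247 in WT kidneys after UUO, and 747, 859, 774, 793 and 900 in IL-33-deficient kidneys after UUO. The controls were highest, every IL-33-deficient UUO kidney was below every WT UUO kidney, and WT replicate 3820 was the nearest to the controls. PROC fell, and its log2 change was -0.62 (standard error 0.09, adjusted p = 7.69e-04) in WT and -1.02 (standard error 0.10, adjusted p = 1.21e-05) in IL-33-deficient kidneys. Without WT replicates 3818 and 3820 the WT change was -0.67 (adjusted p = 9.03e-06).

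PROS1 moved the other way. It had 405 and 513 in the WT controls, 431 and 441 in the IL-33-deficient controls, a lowest of 537, a median of 778 and a highest of 996 in WT kidneys after UUO, and 1050, 968, 874, 828 and 861 in IL-33-deficient kidneys after UUO. All UUO kidneys were above all controls, the lowest being WT replicate 3820, and the highest WT kidney, replicate 3819, lay inside the IL-33-deficient range. PROS1 rose by a log2 of 0.72 (adjusted p = 0.00691) in WT and 1.07 (adjusted p = 3.27e-04) in IL-33-deficient kidneys. In WT kidneys it lost its call without control 3811 and with set 1 alone (adjusted p up to 0.149), and had 0.81 (adjusted p = 2.36e-04) without replicates 3818 and 3820. The protein C receptor gene PROCR was near background, and THBD, the thrombin-binding partner in protein C activation, had a log2 fold change of 0.12 in WT and 0.07 in IL-33-deficient kidneys, which did not pass (THBD and PROCR were chosen after their values were seen).

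PLAUR, the receptor that holds the urokinase plasminogen activator on the cell surface, rose in both genotypes. It had 146 and 132 in the WT controls, 148 and 146 in the IL-33-deficient controls, a lowest of 167, a median of 303 and a highest of 399 in WT kidneys after UUO, and 257, 294, 323, 373 and 278 in IL-33-deficient kidneys after UUO. Here WT replicate 3818 was the lowest UUO kidney and WT replicate 3819 the highest, no UUO kidney overlapped a control, and the IL-33-deficient kidneys lay inside the WT range. PLAUR rose by a log2 of 1.08 (standard error 0.25, adjusted p = 0.00846) in WT and 1.04 (standard error 0.26, adjusted p = 0.00829) in IL-33-deficient kidneys. These log2 changes were 1.82 and 1.72 with the lowest intensity subtracted and 16 added, so their size depends on how background is treated. Its calls were lost without either control of the genotype and with set 1 alone, with adjusted p up to 0.126 in WT and 0.0895 in IL-33-deficient kidneys, and the WT rise was 1.31 (adjusted p = 4.79e-06) without replicates 3818 and 3820. The urokinase gene itself, PLAU, had a log2 fold change of 0.01 in WT and 0.03 in IL-33-deficient kidneys, and the tissue activator PLAT and plasminogen PLG were near background (these 3 were chosen after their values were seen).

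F2R and F2RL1 encode receptors that proteases switch on by cleavage, thrombin in the case of F2R. F2R rose by a log2 of 0.66 (adjusted p = 0.0294) in WT and 0.81 (adjusted p = 0.00728) in IL-33-deficient kidneys. F2RL1 rose by 0.73 (adjusted p = 0.0273) in IL-33-deficient kidneys and had 0.62 (adjusted p = 0.0636) in WT kidneys. F2R lost its calls without either control of the genotype and, in WT, with the 2 WT groups alone, with adjusted p up to 0.254 in WT and 0.0629 in IL-33-deficient kidneys. F2RL1 lost its call without either IL-33-deficient control, without replicate 3821 or 3898 and with either set alone, with adjusted p up to 0.27, and in WT kidneys it passed under 7 alternatives, among them those without replicate 3818 (adjusted p = 0.00494) and without replicates 3818 and 3820 (adjusted p = 0.00199).

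The other 31 genes passed in neither genotype. 20 of them were near background, with a mean intensity in each of the 4 groups under the median of 133 over all arrays: C6, C9, C3AR1, C5AR1, CD46, MASP1, MBL2, F3, F7, F9, F10, F11, F12, FGB, PLG, PLAT, PROCR, TFPI, TFPI2 and CPB2. Their intensities lay between 102 and 156, and their log2 fold changes between -0.06 and 0.13 in WT and between -0.08 and 0.12 in IL-33-deficient kidneys. At such levels a change in transcript can be missed on these arrays. The remaining 11, C1S, CFB, CFD, MBL1, F2, F5, F8, PLAU, THBD, VWF and KNG1, had log2 fold changes between -0.17 and 0.30 in WT and between -0.34 and 0.29 in IL-33-deficient kidneys. The -0.34 was that of MBL1, a mannose-binding lectin (adjusted p = 0.0788), which passed in IL-33-deficient kidneys with brighter genes only (adjusted p = 0.0466), without replicate 3899 (adjusted p = 0.00950) and in the model without WT replicates 3818 and 3820 (adjusted p = 0.0450). Among them KNG1, the kininogen precursor, had 2063 to 2715 and CFB, the protease of the alternative route, 607 to 1367 over the 16 kidneys (these, like MBL1, were chosen after their values were seen), so the kidneys held levels well above background that did not pass the test for UUO.

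Levels in 1 kidney set several of these genes apart. In WT replicate 3818, F2, the gene of prothrombin, had 234 against 118 to 161 in the other 15 kidneys, PLG 154 against 111 to 124, CPB2, which protects fibrin from plasmin, 156 against 112 to 122, and C9, of the membrane attack complex, 148 against 118 to 136. All are known as liver products, and the same kidney had the highest values of the hepatocyte markers APOA1 (860 against 116 to 146), AHSG (658 against 113 to 122) and APOA2 (1674 against 163 to 331), while its ALB was 111 and SERPINA1A and TTR, of the same list, were higher in other kidneys. CFD, the protease adipsin, which fat cells make, had 588 in WT replicate 3818 and 443 in IL-33-deficient replicate 3822 against 124 to 155 in the other 14 kidneys, where ADIPOQ, another gene of fat cells, had 132 and 151 against 111 to 130. Of FABP4 and RETN, also expressed by fat cells, FABP4 had 115 and 110 in these kidneys, inside the 106 to 122 of the others, and RETN had 129 in WT replicate 3818, above the 107 to 122 of the others, and 120 in IL-33-deficient replicate 3822, inside them. The genes of this paragraph were chosen after their values were seen, and neither the part of other tissue in these values nor the ALB probe was tested. FGA, FGG and C3 in WT replicate 3818 lay inside the range of the other WT kidneys after UUO.

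**Figure D3:**
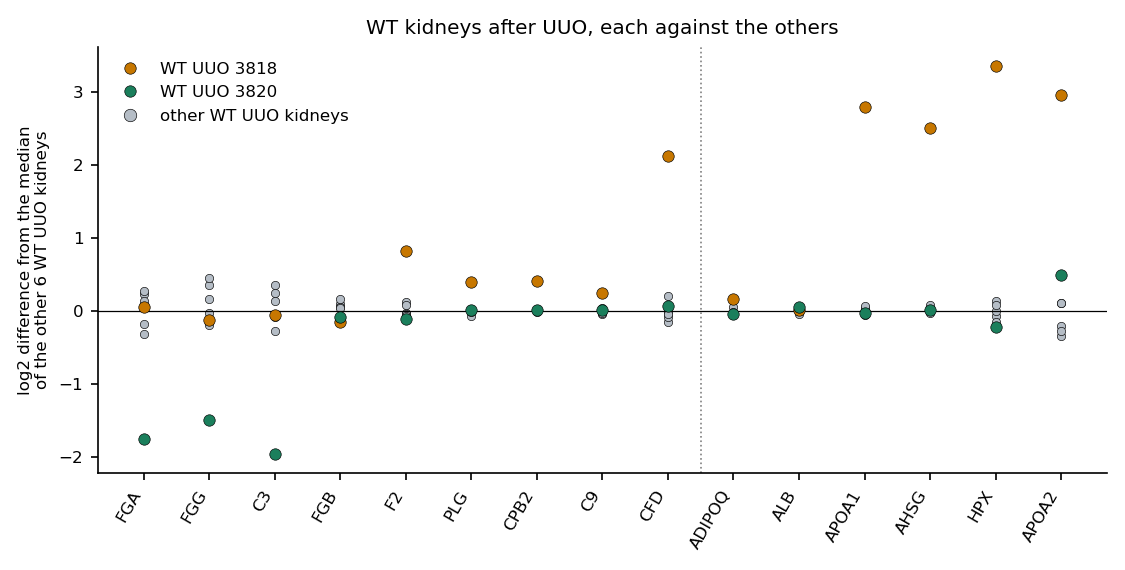
Log2 difference of each WT kidney after UUO from the median of the other 6 (y axis) for genes of the group (left of the dotted line) and for ADIPOQ and some of the hepatocyte markers (right). The genes were chosen after their values were seen, and TTR, APOH, SERPINA1A, CPS1 and TAT of the hepatocyte list are not shown. WT replicate 3818 is high for CFD, F2, APOA1, AHSG, HPX and APOA2 and not for ALB, whose probe was not tested. WT replicate 3820 is low for FGA, FGG and C3, at 4664, 4080 and 1135 in linear intensity.

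Between the genotypes after UUO, none of the 51 genes passed the threshold of the study (a fold change above 1.3, with p under 0.05 unadjusted and under 0.25 adjusted) in limma over the 12 UUO kidneys. The study used that threshold on probes and with fewer WT kidneys, so counts here cannot be set against its own. That threshold was passed by 0.011% of all genes, 2 in number, IL33 and ACTA2 (ACTA2 was chosen after its values were seen). At an unadjusted p under 0.05 there were 10 of the 51 and 1874 of all genes, and the smallest adjusted p among the 51 was 0.304. The median log2 fold change of the 51 was 0.02, beside 0.0026 over all genes. For MASP2 and PROC the genotypes did not overlap, as for 0.756% of all genes.

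The 5 genes with the smallest p were lower in IL-33-deficient kidneys for MASP2, PROC and F13B and higher for C1QA and CFP. The log2 difference was -0.14 for MASP2 (adjusted p = 0.304 from limma, standard error 0.03) and -0.31 for PROC (adjusted p = 0.311, standard error 0.07). For MASP2 both UUO groups lay near background, at means of 129 in WT and 117 in IL-33-deficient kidneys, and the difference was -0.39 with the lowest intensity subtracted and 16 added, so its size depends on how background is treated. Within set 1 and set 2 the difference was -0.15 and -0.13 for MASP2 and -0.37 and -0.27 for PROC. F13B had -0.60 (adjusted p = 0.320, exact permutation p = 0.0114), which was -1.06 within set 1 and -0.27 within set 2. C1QA had 0.27 (adjusted p = 0.336, exact permutation p = 0.0240), with 0.37 and 0.20 within the sets, and CFP 0.42 (adjusted p = 0.351, exact permutation p = 0.0227), with 0.54 and 0.34. The permutation p are for 1 gene each, with no adjustment over genes, and these genes were picked by their small p from limma. With the set of mice as a block none of the 51 passed the threshold either, and 2001 of all genes had an unadjusted p under 0.05.

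This comparison changed with the kidneys in it. Without WT replicate 3819, which had the highest WT values of C1QB, C1QC and CFP and the lowest of F13B, C1QB, C1QC, CFP, F2R and F13B passed the threshold of the study, with 309 of all genes. F13B also passed without IL-33-deficient replicate 3899, where 94 of all genes did, and with array weights, brighter genes only or the 4 groups in 1 model (80, 168 and 127 of all genes), and CFP with brighter genes only. An adjusted p under 0.25 was reached under 8 of 23 alternatives by PROC, 6 of 22 by MASP2 and 3 of 23 by C1QA, each time with too small a fold change for the threshold. Without WT replicates 3818 and 3820 none of the 51 passed, with 43 of all genes and 1807 at an unadjusted p under 0.05. With set 2 alone C1QB passed, and with set 1 alone none did, where 1081 of all genes had an unadjusted p under 0.05.

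**Figure D4:**
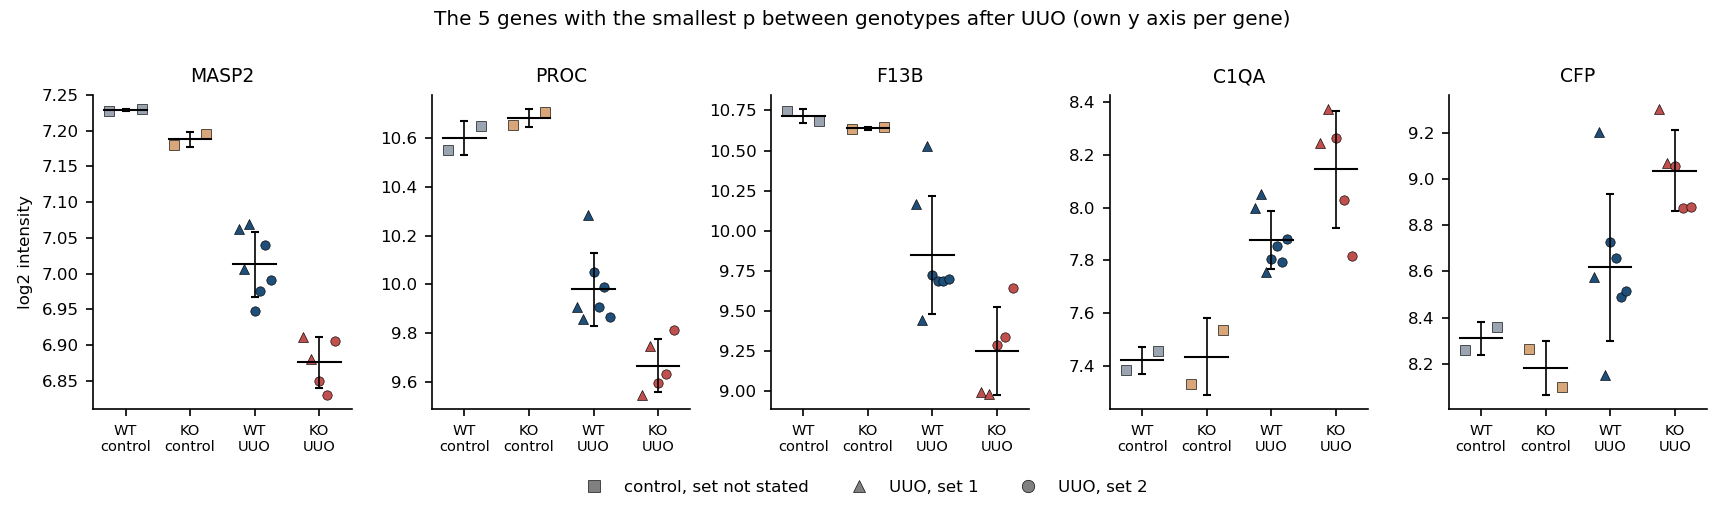
Log2 intensity (y axis, own scale for each gene) in each kidney by group (x axis) for the 5 genes with the smallest p between genotypes after UUO, with mean and SD as bars. Squares are controls, triangles set 1 and circles set 2. MASP2 and PROC are lower in all 5 IL-33-deficient than in all 7 WT kidneys after UUO, while F13B, C1QA and CFP overlap.

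The response to UUO did not differ between genotypes at an adjusted p under 0.05 for any of the 51 genes, nor for any gene of the table (0% of 18132) in limma. At an unadjusted p under 0.05 there were 3 of the 51, PROC, C2 and C3AR1 (named after their values were seen), and 860 of all genes. The difference in response was a log2 of -0.40 (standard error 0.14) for PROC and 0.52 (standard error 0.19) for C2. Between the control kidneys of the genotypes, 0% of all genes and none of the 51 passed, with 2 of the 51 (C2 and F11, named after their values were seen) and 664 of all genes at an unadjusted p under 0.05 in limma. A gene that passed in IL-33-deficient and not in WT kidneys is therefore not shown to respond differently.

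Other genes of the same pathways were listed apart from the 51, and their counts stand beside 6.97% of all genes higher and 8.22% lower in WT, and 10.6% higher and 11.2% lower in IL-33-deficient kidneys. Of 23 other complement genes in the table, CRRY and C1QBP rose in WT and CRRY, CD93 and C1QBP in IL-33-deficient kidneys, and C8A and C8G fell in both. CRRY, a regulator of C3 on mouse cells, rose by a log2 of 0.42 in WT kidneys and of 0.60 without IL-33, C1QBP by 0.30 and 0.57, and CD93 by 0.57 in IL-33-deficient kidneys. C8A, a chain of the membrane attack complex, had log2 changes of -0.70 in WT and -0.78 in IL-33-deficient kidneys, and C8G of -0.83 and -1.41.

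Of 21 other coagulation and fibrinolysis genes, ANXA2, S100A10 and ANXA5 rose in both genotypes, 2 fell in WT and 5 in IL-33-deficient kidneys. ANXA2 and S100A10 form the annexin A2 complex, which binds plasminogen and its tissue activator at the cell surface, and they rose by a log2 of 1.41 and 1.53 in WT and of 2.05 and 1.94 in IL-33-deficient kidneys. ANXA5, which covers exposed phosphatidylserine, rose by 0.90 and 1.27. PROZ and VKORC1 had log2 changes of -0.26 and -0.48 in WT kidneys, and the largest falls in IL-33-deficient kidneys were HPN with -0.79, VKORC1, the vitamin K reductase, with -0.48, and TBXAS1 with -0.42. Of 9 serpin regulators, SERPINA10, the inhibitor of factors X and XI that works with protein Z, rose by a log2 of 3.78 (adjusted p = 6.97e-05 from limma) in WT and 4.73 (adjusted p = 7.81e-06) in IL-33-deficient kidneys, and SERPINF2, the inhibitor of plasmin, fell, with -0.80 (adjusted p = 0.0253) and -1.57 (adjusted p = 2.39e-04). After UUO every IL-33-deficient kidney had more SERPINA10 than every WT kidney, 3532 to 4515 against 688 to 3494, with an adjusted p of 0.417 from limma. The genotypes also did not overlap for 0.756% of all genes, and the lowest WT kidney for SERPINA10 was replicate 3820. Without WT replicates 3818 and 3820 the WT rise was 4.16 for SERPINA10, 1.73 for ANXA2, 1.82 for S100A10 and 1.02 for ANXA5. HPN, TBXAS1, C8B, CD93 and SERPING1 then passed in WT kidneys, where 2009 of all genes rose and 2107 fell. Of them, C8B and SERPING1 had not passed in IL-33-deficient kidneys with all arrays. None of these further genes passed the threshold of the study between genotypes after UUO.

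The tubule itself changed beside these genes. The 9 tubule markers in the table had a summed intensity of 70265 and 67145 in the WT controls, 70970 and 67989 in the IL-33-deficient controls, 37036 to 68326 (median 47494) in WT kidneys after UUO, with the highest in WT replicate 3820, and 33172, 36530, 37505, 38727 and 42560 in IL-33-deficient kidneys after UUO. 3 of the 9 fell in WT and 5 in IL-33-deficient kidneys, and none rose, where 8.22% and 11.2% of all genes fell. KAP had the highest mean intensity over all kidneys, SLC34A1 had the highest intensity in the 4 controls, and none of the 9 was near background. The injury genes HAVCR1 and LCN2 rose in both genotypes. Their sum was 28139, 27918, 24918, 24881 and 21008 in the 5 IL-33-deficient kidneys after UUO, in each of which HAVCR1 had the higher intensity. Of 4 platelet markers PPBP rose in WT and ITGA2B fell in IL-33-deficient kidneys, and the sum stayed between 492 and 523 in all 16 kidneys. 7 endothelial markers, of which EMCN had the highest mean intensity, had sums of 3657 to 4651, with falls of TEK and TIE1 in IL-33-deficient kidneys. None of the 5 T and B cell markers in the table passed the test. Without WT replicates 3818 and 3820, S100A9, APOA2, TEK, TIE1, LRP2, AQP1 and UMOD of the marker lists also passed in WT kidneys. The part of these cell types in the changes of the 51 genes was not tested.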

How the data were processed

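Total RNA of 16 kidneys, 1 array each, was measured on Illumina mouse BeadChips. The intensity values analysed are those the authors deposited, on a linear scale, 1 per gene, with the array medians at 132 to 133; BeadStudio 2 is named in the notes on the files, and how background, normalization and the joining of probes were done is not given in the sources used here. All 18132 genes and all columns were used, with no missing values. The deposited intensities were quantile-normalized here, and log2 values were compared with limma (version 3.58.1, R 4.3.3), adjusting p by Benjamini-Hochberg across the whole table. The 4 groups shared 1 model for UUO against control in each genotype, for the difference in response and for the controls (called at an adjusted p under 0.05). IL-33-deficient and WT kidneys after UUO were compared over the 12 UUO arrays at the threshold of the study, with exact permutation over samples for single genes. The fit was tested on simulated data.

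Values per kidney are given for IL33, for genes of the group called for UUO with an absolute log2 fold change of at least 1, for genes called between genotypes, and for the 5 with the smallest p between genotypes after UUO. Other called genes are given by fold change and the rest by ranges and counts. Genes with a mean intensity under the median of the arrays in each of the 4 groups are called near background. The members, the lists of other complement, coagulation and serpin genes, and the lists of macrophage, neutrophil, platelet, hepatocyte, endothelial, T and B cell, tubule and tubular injury markers were chosen with earlier results of these data known. The alternatives were deposited intensities without this quantile normalization, median centring, subtraction of the lowest intensity with 16 added, an intensity trend, array weights, brighter genes only, each array left out, each set alone, the set as a block, other groupings of the model, and, chosen after seeing the data, leaving out WT replicates 3818 and 3820. Promoters were taken from RefSeq for GRCm38.p6, and genes were matched to its annotation by symbol for 50 of the 51 and by a synonym for C1S.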

Additional observations from a re-analysis of the deposited data

Results flagged for a closer look

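In each gene and UUO group, the highest and the lowest kidney were compared with the range of their group, and 12 values lay far from the others. This was done in 104 groups, where chance gives about 1 in 20, or 5.2. WT replicate 3820 had the low values of C3 (1134.78, others 3629 to 5356), FGA (4663.5, others 12725 to 17692) and FGG (4079.72, others 10135 to 14761). WT replicate 3818 had the low value of IL33 (334.589, others 551 to 762) and the high values of F2 (233.777, others 127 to 144), PLG (153.514, others 111 to 118), CPB2 (155.82, others 117 to 120), C9 (147.575, others 123 to 128), F7 (129.385, others 119 to 123) and CFD (587.523, others 124 to 155). WT replicate 3819 had the high value of C1QC (786.545, others 433 to 560). IL-33-deficient replicate 3822 had the high value of CFD (442.703, others 127 to 130). PLG, CPB2, C9 and F7 were near background in their group means. Causes were not tested.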

How the results depend on the processing

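Of 705 values under the alternatives, of genes called with all arrays and of the 5 with the smallest p between genotypes, 647 kept their direction and their side of the threshold, 51 lost the call, 7 gained it (F13B and CFP between genotypes) and 0 reversed. Genes outside these gained calls for UUO 25 times (C4B, F2RL1 and F13A1 in WT, CD59A and MBL1 in IL-33-deficient kidneys) and between genotypes 4 times (C1QB, C1QC and F2R). FGA, FGG, C3, PROC and MASP2 kept their calls for UUO in both genotypes in every alternative that tested them (MASP2 is not among the brighter genes), and C1QA, C2, CFI, F13B and PROS1 did so in IL-33-deficient kidneys. The log2 fold change ranged over 4.59 to 5.45 for FGG, 3.64 to 4.32 for FGA and 2.94 to 3.64 for C3 in WT kidneys, and over 5.38 to 5.90, 3.95 to 4.49 and 3.88 to 4.32 in IL-33-deficient kidneys. The IL33 call between genotypes after UUO was lost with set 1 alone (adjusted p = 0.736 from limma), where the log2 fold change was -2.18, against -2.36 with both sets. With the lowest intensity subtracted and 16 added, log2 changes of dim genes grew by over 1.5 times, beside MASP2 and F13A1 for C1QA (0.76 in WT, 1.12 in IL-33-deficient kidneys), PLAUR (1.82 and 1.72) and CD55 (-0.56 and -0.80) with UUO, and for IL33 between genotypes (-3.75). MBL1, which was not called with all arrays, then had -0.60 with UUO in IL-33-deficient kidneys, against -0.34.

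For UUO in WT kidneys, 8 members rose and 5 fell. Set 1 alone gave 4 and 2, set 2 alone 10 and 5, the 2 groups of the genotype alone 7 and 2, leaving out WT replicates 3818 and 3820 gave 10 and 5, and 11 rose with 16 added after subtraction, an intensity trend, array weights or brighter genes only, and leaving out single arrays gave 3 to 10 and 2 to 5, the fewest without WT control 3811 or 3812. Of all genes 1263 rose and 1491 fell. The counts of higher genes were 1920 with array weights, 409 with set 1, 1966 with set 2, 809 with the 2 groups alone, 2009 without WT replicates 3818 and 3820 (an alternative chosen after seeing the data) and 367 to 1711 without single arrays. The counts of lower genes were 480 with set 1, 969 with the 2 groups alone and 442 to 1867 without single arrays. For UUO in IL-33-deficient kidneys, 15 members rose, and 8 to 15 did without single arrays, with 10 without IL-33-deficient control 3813 and 8 without control 3814. Of all genes 1916 rose and 2039 fell, and without single arrays 1055 to 1878 and 1221 to 1960, the fewest without control 3813. Where 1 control was left in a group, it was assumed to vary like the other groups.

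Between genotypes after UUO 0 members and 2 of all genes were called in limma. Members called numbered 1 with array weights (F13B), 2 with brighter genes only (CFP and F13B), 1 with set 2 (C1QB), 1 with the 4 groups in 1 model (F13B) and 0 to 5 without single arrays. All genes called numbered 80 with array weights, 168 with brighter genes only, 1 with the set as a block, 0 with set 1 (1081 at an unadjusted p under 0.05), 81 with set 2, 127 with the 4 groups in 1 model, 43 without WT replicates 3818 and 3820, and 1 to 309 without single arrays, with 309 without WT replicate 3819 and 94 without IL-33-deficient replicate 3899. For the difference in response, 0 of all genes were called in limma (860 at an unadjusted p under 0.05), 2 with set 2, 1 without WT replicates 3818 and 3820, and 0 to 1 without single arrays. Fewer samples were used where arrays or a set were left out and fewer genes where dim ones were; otherwise the cause was not tested. No paired analysis was possible because the groups share no replicate numbers.

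With 2 controls per genotype, the counts for UUO depend on each control. Controls were not operated on, their set is not stated, and each genotype has 1 time point. Of all genes 45.8% were near background, where a change can be missed.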

Other observations

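HP, the gene of haptoglobin, made by liver and fat, had 1142 in WT replicate 3818 and 384 in IL-33-deficient replicate 3822, against 126 to 178 in the other 14 kidneys, the same 2 kidneys that were high for CFD. VTN, the gene of vitronectin, had 381 in WT replicate 3818 against 103 to 125 in the other 15. Both genes were named after their values were seen.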
